A study of Homo sapiens with 6 samples.

Results

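The genes described here encode the proteasome: 49 protein-coding genes whose symbols begin with PSMA to PSMG followed by a number, out of 58735 genes in the count table. The rule for membership uses gene name and biotype. The list holds 8 alpha and 7 constitutive beta subunits of the 20S core, 4 tissue-specific beta subunits, 17 subunits and 3 assembly chaperones of the 19S cap, 4 chaperones of 20S assembly, 4 activators and 1 inhibitor. The name rule also took in PSMC3IP, which encodes a partner of meiotic recombinases and is no proteasome subunit. Of the 49 genes, 47 had enough counts to be tested. PSMA8, an alpha subunit of the testis, and PSMB11, a beta subunit of the thymic cortex, had no count in any library, where a floor of 3 counts per library allows up to 0.2 CPM (counts scaled to library size) in 8p replicate 3, the shallowest library.

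The cells were MOLM-13, an established human acute myeloid leukaemia line that carries a KMT2A fusion and an activating FLT3 duplication. Cells given 8p (n = 3), a compound that the submitters describe as inhibiting RET and CDK kinases and that the sample labels tie to CDK8, received 3.5 nM for 48 hours, below its stated IC50 of 7 nM. Control cells (n = 3) were untreated for the same 48 hours, and whether they received solvent is not stated. Both groups carried the label of wild-type genotype, and the replicates were described as independent biological ones of 1 line.

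The proteasome breaks down proteins tagged with ubiquitin. In the 20S core, rings of alpha subunits gate a chamber formed by rings of beta subunits, of which PSMB6, PSMB7 and PSMB5 cut the substrate. The 19S cap binds ubiquitin chains, removes them and unfolds the protein with a ring of ATPases. In blood cells, and elsewhere under interferon, PSMB9, PSMB10 and PSMB8 can take the places of PSMB6, PSMB7 and PSMB5 to form the immunoproteasome, and the PA28 activator made of PSME1 and PSME2 caps it. These changes favour peptides that fit MHC class I molecules. The transcription factor NFE2L1 raises proteasome genes together when the proteasome is inhibited.

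Totals ran from 14972069 to 16210861 counts in 8p libraries and from 18834611 to 23485628 in controls. Mitochondrially encoded genes took 10.004, 6.42 and 9.98% of counts in 8p replicates 1 to 3 and 1.64 to 1.91% in controls. With these genes left out of the library scaling, 45 members were called lower and 0 higher. The median log2 fold changes were then -1.25 for constitutive 20S and -1.36 for 19S subunits. Any other part of the mitochondrial difference in the results below was not tested. 8p replicate 2 stood apart from the other 8p libraries on the second principal component, which held 4.61% of the variance. All 9 monocytic leukaemia markers chosen for the line had counts in both groups. Their summed level was 4617 to 5283 CPM with 8p and 1898 to 2034 CPM in controls, most of it LYZ. ANPEP had 0, 4 and 3 counts in control replicates 1 to 3. CD33 and MPO fell (log2 fold changes -0.50 and -0.64), ITGAM did not pass, and the other markers of this list rose. Of 3 fibroblast markers, COL1A1 alone had counts, and its list summed to 25.6 to 37.6 CPM with 8p and 0.218 to 0.801 CPM in controls, while COL1A2 and DCN were at 0. The T and NK cell list summed to 29.1 to 37.9 CPM with 8p and 20.8 to 24.6 CPM in controls, most of it NKG7, with CD8A at 0. Epithelial markers (4.43 to 6.12 CPM with 8p, 9.06 to 9.72 CPM in controls), B cell markers (1.498 to 2.29 CPM with 8p, 1.35 to 1.64 CPM in controls) and erythroid markers (at most 0.202 CPM with 8p, 0.0843 CPM in controls) were low, with EPCAM, PAX5, HBA1 and HBB at 0. The part of these markers in the results was not tested.

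Upstream sequence is shown for 5 members on which the results turn: PSMG1, which fell furthest among the proteasome genes, PSMB5, the catalytic subunit that fell furthest, PSMB10 and PSME2, which carry the same interferon-type match, and PSMB9, which did not pass the test. The RefSeq start of TAP1, a peptide transporter gene on the other strand close to the RefSeq start of PSMB9, is shown as well. PSMB5 has a further window that is not printed. Each sequence is the 250 bases before a RefSeq gene start in build GRCh38.p14, read 5′ to 3′ on the gene's strand. Capitals mark matches to the antioxidant response element core TGACNNNGC, the interferon-gamma activated site TTCNNNGAA, the interferon-stimulated response element core (GAAA, 2 free bases and GAAA) or CCAAT, on either strand. The windows lie at chr21:39183452-39183701 (minus strand) for PSMG1, chr14:23035221-23035470 (minus) for PSMB5, chr16:67936851-67937100 (minus) for PSMB10, chr14:24146611-24146860 (minus) for PSME2, chr6:32853942-32854191 (plus) for PSMB9 and chr6:32853705-32853954 (minus) for TAP1.
PSMG1: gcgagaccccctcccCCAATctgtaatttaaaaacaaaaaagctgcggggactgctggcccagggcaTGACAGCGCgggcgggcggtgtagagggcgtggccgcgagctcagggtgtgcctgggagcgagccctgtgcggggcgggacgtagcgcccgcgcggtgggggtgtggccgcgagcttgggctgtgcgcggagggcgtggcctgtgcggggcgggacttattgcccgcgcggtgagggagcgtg
PSMB5: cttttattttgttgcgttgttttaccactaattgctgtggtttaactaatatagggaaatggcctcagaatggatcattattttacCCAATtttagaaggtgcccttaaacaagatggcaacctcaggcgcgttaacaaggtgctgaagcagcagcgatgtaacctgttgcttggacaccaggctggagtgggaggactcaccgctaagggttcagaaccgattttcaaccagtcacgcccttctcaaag
PSMB10: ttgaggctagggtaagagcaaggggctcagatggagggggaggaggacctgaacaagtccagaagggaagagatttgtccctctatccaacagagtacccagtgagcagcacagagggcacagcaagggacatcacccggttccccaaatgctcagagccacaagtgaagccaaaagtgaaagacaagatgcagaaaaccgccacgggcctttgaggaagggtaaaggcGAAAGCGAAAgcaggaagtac
PSME2: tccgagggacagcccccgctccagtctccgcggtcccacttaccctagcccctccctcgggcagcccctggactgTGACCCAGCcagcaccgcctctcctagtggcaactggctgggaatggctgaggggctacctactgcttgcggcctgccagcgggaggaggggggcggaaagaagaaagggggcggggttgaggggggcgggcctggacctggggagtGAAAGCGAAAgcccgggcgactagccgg
PSMB9: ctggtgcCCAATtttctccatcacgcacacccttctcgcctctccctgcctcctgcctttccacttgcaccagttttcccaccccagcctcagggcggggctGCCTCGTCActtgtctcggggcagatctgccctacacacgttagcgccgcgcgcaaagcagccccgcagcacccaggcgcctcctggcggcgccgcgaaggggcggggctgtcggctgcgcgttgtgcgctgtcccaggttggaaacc
TAP1: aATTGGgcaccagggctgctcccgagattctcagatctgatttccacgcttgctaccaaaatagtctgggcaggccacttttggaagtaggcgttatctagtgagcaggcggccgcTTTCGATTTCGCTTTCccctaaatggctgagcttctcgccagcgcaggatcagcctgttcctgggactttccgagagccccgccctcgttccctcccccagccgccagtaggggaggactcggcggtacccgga

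RefSeq windows were at hand for 43 of the 49 members, 53 windows in all. The antioxidant response element core, the motif type bound by NFE2L1 and NFE2L2, occurred in 13 of 53 member windows (24.5%) and in 10.9% of all 35116 windows. The interferon-stimulated response element core occurred in 5 member windows (9.43%), against 3.02% of all windows, in PSMA4, PSMB4, PSMB10, PSME2 and PSMG4. The interferon-gamma activated site occurred in 7 member windows (13.2%, against 6.57% of all), in PSMA2, PSMA8, PSMB5, PSMB8, PSMC4, PSMD3 and PSME3. In PSMB5 the matches lay in the window not printed here, beginning 15 and 158 bases before its start. CCAAT occurred in 21 member windows (39.6%, against 32.0%). These are letter matches and not shown sites. The median log2 fold change of tested members was -0.90 with the antioxidant match and -1.28 without it. For the interferon-stimulated core it was -1.19 with and -1.24 without, and for the interferon-gamma site -1.31 and -1.22. For CCAAT it was -1.30 with and -0.96 without. Whether any match bears on these changes was not tested. PSMB10, PSME2 and PSMG4 shared the letters GAAAGCGAAA, which began 21, 28 and 33 bases before their starts. The PSMB9 window held none, but 487 bases separate the RefSeq starts of PSMB9 and TAP1. The TAP1 window held 2 overlapping matches that end 354 and 360 bases before the RefSeq start of PSMB9.

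Proteasome transcripts were lower with 8p almost throughout. Of the 47 tested genes 45 fell and none rose (edgeR quasi-likelihood test, adjusted p under 0.05), beside 36.9% of all 13822 genes tested that fell and 37.9% that rose. At an unadjusted p under 0.05 the counts were the same, 45 lower and 0 higher, as they were with DESeq2 and limma-voom. The median log2 fold change of the 47 genes was -1.24, or 42.3% of the control level, where the median of all genes tested was 0.03. A fall of at least 2-fold was found for 32 of them, beside 17.5% of all genes. The 3 values with 8p lay below the 3 control values for 45 genes, beside 38% of all genes, and above them for 0 genes, beside 38.9% of all genes. In bulk RNA, fewer cells of a kind and less RNA per cell cannot be told apart.

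Summed over the 48 members other than PSMC3IP, the level was 3072, 3011 and 3089 CPM in 8p replicates 1 to 3, and 6697, 6879 and 7256 CPM in control replicates 1 to 3. The groups did not overlap, and the libraries within each differed little. The 14 constitutive 20S genes summed to 1073 ± 8.01 CPM with 8p and 2590 ± 182 CPM in controls (SD, n = 3 each), a ratio of 0.414. The 17 member genes of the 19S cap summed to 1175 ± 16.5 CPM with 8p and 2834 ± 71.1 CPM in controls, a ratio of 0.415. Core and cap thus had nearly the same ratio, although single subunits ranged widely around it.

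**Figure D1:**
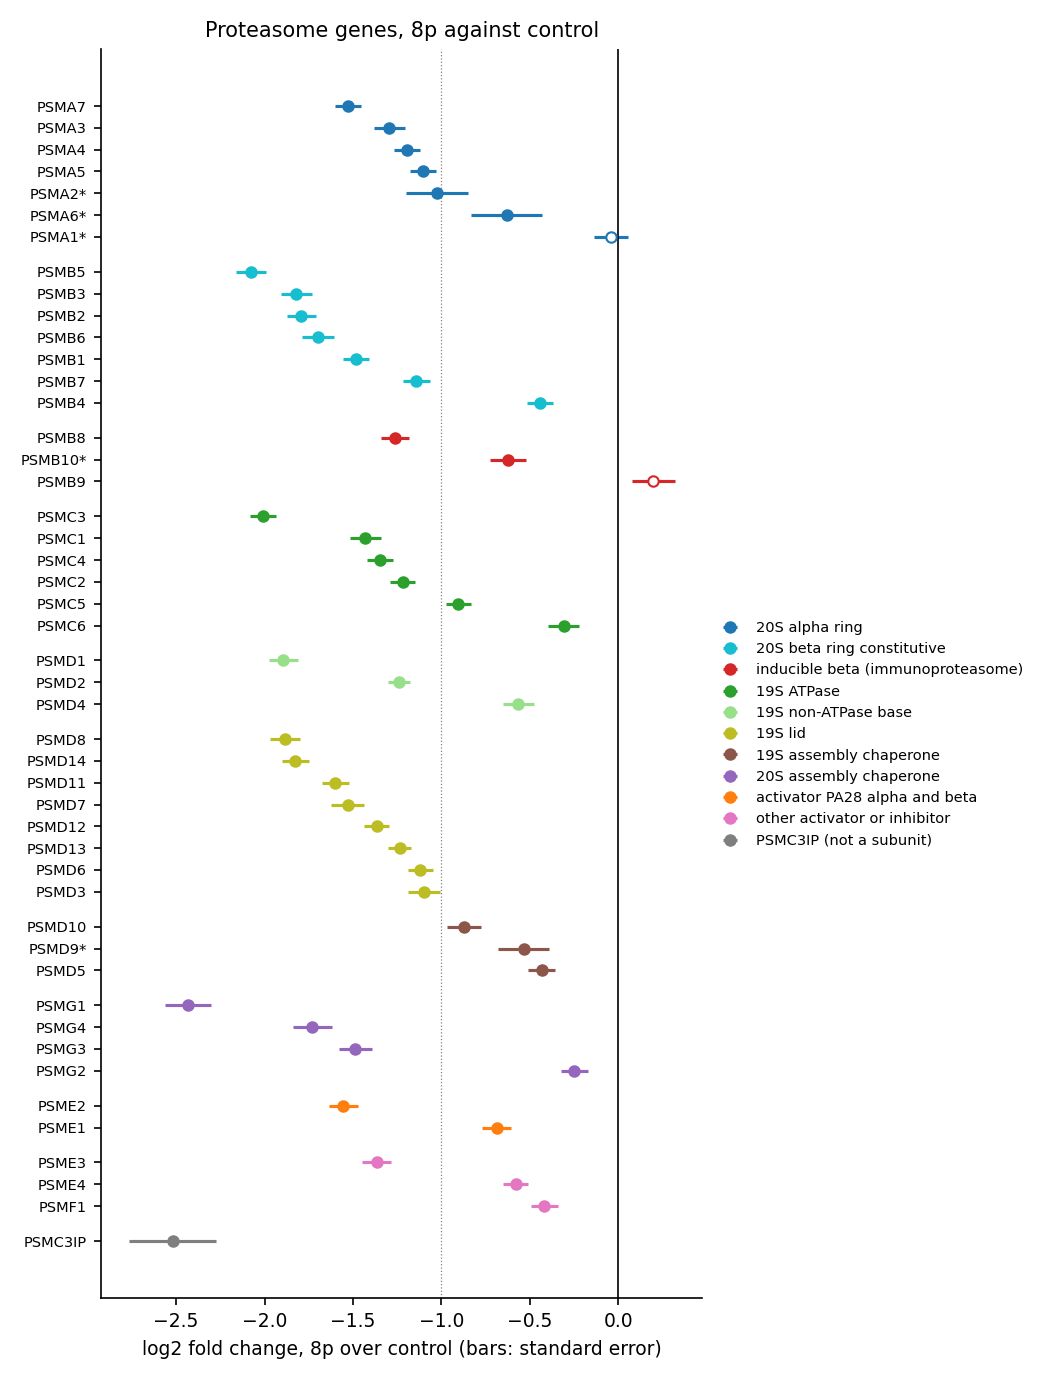
Log2 fold change of each of the 47 tested genes, 8p over control, by role; bars are standard errors, filled points passed an adjusted p of 0.05, open points did not, and asterisks mark the 5 genes with at least 50% of coding bases in exons of another gene. The points run from -2.52 for PSMC3IP to 0.20 for PSMB9, and all but PSMA1 and PSMB9 are filled.

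Of the 7 tested alpha subunits, 6 fell, and the group's median was -1.11 on the log2 scale. PSMA7 (chromosome 20, 62136735 to 62143440, minus strand; hg38) fell furthest, with 86.6, 102 and 92.0 CPM in 8p libraries and 264, 268 and 279 CPM in controls. Its groups lay far apart (log2 fold change -1.53, SE 0.07, adjusted p = 3.93e-11). PSMA3, PSMA4 and PSMA5 had log2 fold changes of -1.30, -1.19 and -1.11, all past the test.

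The 3 remaining alpha genes shared coding sequence with other genes. PSMA1 (chromosome 11, 14504874 to 14643635, minus strand) had 40.9, 38.6 and 39.0 CPM in 8p libraries and 41.3, 35.2 and 45.7 CPM in controls. The groups overlapped, and the log2 fold change was -0.04 (SE 0.10, adjusted p = 0.707). PSMA2 averaged 4.02 ± 0.0515 CPM with 8p and 8.20 ± 1.02 CPM in controls (log2 fold change -1.02), and PSMA6 3.34 ± 0.150 CPM with 8p and 5.17 ± 0.673 CPM in controls (-0.63, adjusted p = 0.0106). In the annotation, 88.6% of the coding bases of PSMA1, 97.1% of those of PSMA2 and 70.4% of those of PSMA6 also belong to exons of another gene on the same strand. The same was found for PSMB10 (58.3%) and the chaperone PSMD9 (58.7%), and for no other member did the share, on either strand, reach 50%. The partner genes on the same strand had 0 to 241 counts over the 6 libraries. The sources used here do not say how reads in such exons were assigned, so the levels and fold changes of these 5 genes are uncertain. Without them, 41 of 42 genes fell, and the median of the 20S constitutive genes was -1.48 instead of -1.24.

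**Figure D2:**
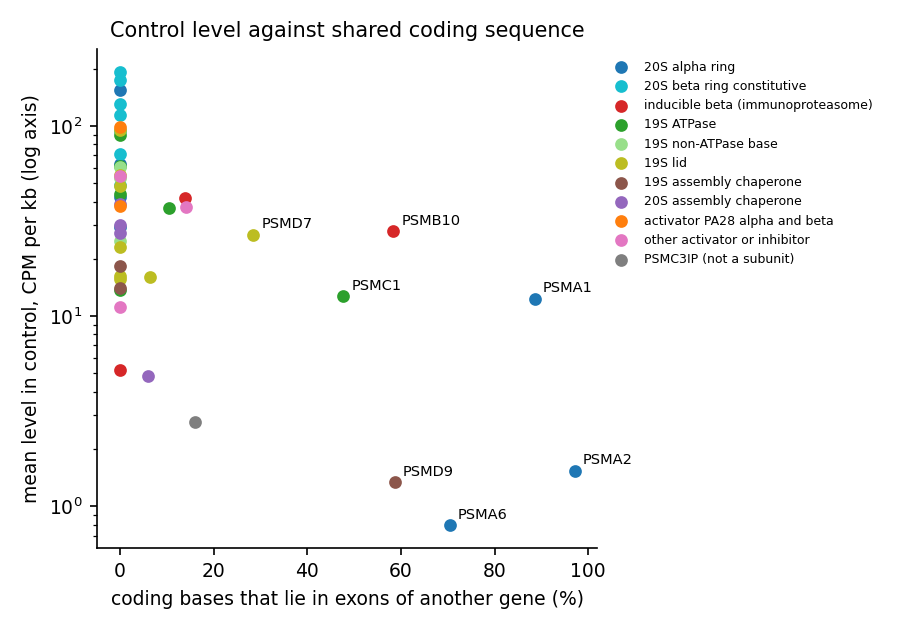
Mean control level (CPM per kb of exon, log axis) of the 47 tested genes against the share of their coding bases that also lies in exons of another gene on either strand; colours give the role. PSMA6 (0.795 CPM per kb), PSMD9 (1.34) and PSMA2 (1.54) are the lowest points and lie at 70.4, 58.7 and 97.1% on the horizontal axis.

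Per kb of exon, the control levels of the 14 constitutive 20S genes ran from 0.795 CPM per kb for PSMA6 to 192 CPM per kb for PSMB3. PSMA6 is 1 of the genes with shared coding bases, whose levels are uncertain. Among the constitutive 20S genes other than these, the lowest was PSMA5, at 29.5 CPM per kb. PSMB1 followed PSMB3 at 175 CPM per kb, then PSMA7 at 154 CPM per kb. With 8p the highest member was PSMB4, at 96.4 CPM per kb, against 131 CPM per kb in controls. PSMB3 stood at 54.4 CPM per kb with 8p and was the highest in controls, so the order of the members differed between groups.

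All 7 constitutive beta genes fell, with a median of -1.70. PSMB5 (chromosome 14, 23016543 to 23035230, minus strand), the subunit with chymotrypsin-like activity and the main target of bortezomib, had 30.7, 28.2 and 30.2 CPM in 8p libraries and 116, 124 and 135 CPM in controls. With 8p it stood at 23.7% of the control level (log2 fold change -2.08, SE 0.08, adjusted p = 5.09e-12). PSMB6, with caspase-like activity, had 39.8, 38.8 and 48.2 CPM in 8p libraries and 127, 137 and 147 CPM in controls (log2 fold change -1.70). PSMB7, with trypsin-like activity, had 88.5, 87.1 and 101 CPM in 8p libraries and 196, 200.5 and 213 CPM in controls (-1.14). In each of the 3 catalytic genes every 8p library lay below every control library. PSMB3, PSMB2 and PSMB1, without catalytic activity, had log2 fold changes of -1.82, -1.79 and -1.48, all past the test. PSMB4 fell least, with 209.5, 212 and 203 CPM in 8p libraries and 264, 275 and 309 CPM in controls (log2 fold change -0.44, SE 0.07, adjusted p = 4.33e-05).

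Of the 3 tested inducible beta genes, 2 fell and PSMB9 did not pass, with a median of -0.62. PSMB8 (chromosome 6, 32840717 to 32844703, minus strand), the counterpart of PSMB5, had 48.1, 53.8 and 54.4 CPM in 8p libraries and 117, 125 and 133 CPM in controls. It fell by 1.26 on the log2 scale (SE 0.08, adjusted p = 8.71e-10). PSMB10 (chromosome 16, 67934502 to 67937087, minus strand), the counterpart of PSMB7, had 32.3, 33.5 and 35.01 CPM in 8p libraries and 44.9, 51.0 and 59.5 CPM in controls (log2 fold change -0.62, SE 0.10, adjusted p = 4.82e-05). The groups did not overlap. PSMB10 is one of the 5 genes with shared coding bases.

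PSMB9 (chromosome 6, 32844136 to 32859585, plus strand), the counterpart of PSMB6, had 19.2, 18.6 and 16.8 CPM in 8p libraries and 14.4, 15.2 and 18.1 CPM in controls. The groups overlapped, and the test did not separate them (log2 fold change 0.20, SE 0.12, adjusted p = 0.157). With upper quartile scaling it passed as higher (0.39, adjusted p = 0.0102), and likewise among protein-coding genes alone (0.28, adjusted p = 0.0474), in a range of adjusted p from 0.0102 to 0.615 over its alternatives. The annotation used for the counts starts PSMB9 at 32844136, whereas the RefSeq start used for its printed window is at 32854192. TAP1 (32845209 to 32853978, minus strand) lies within the annotated span of PSMB9. In that annotation PSMB8 and PSMB9 overlap head to head. Of the exon bases of PSMB8, 20.6% lie in exons of PSMB9 or of the noncoding PSMB8-AS1. For PSMB9 that share was 5.7%, and none of its coding bases were shared.

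**Figure D3:**
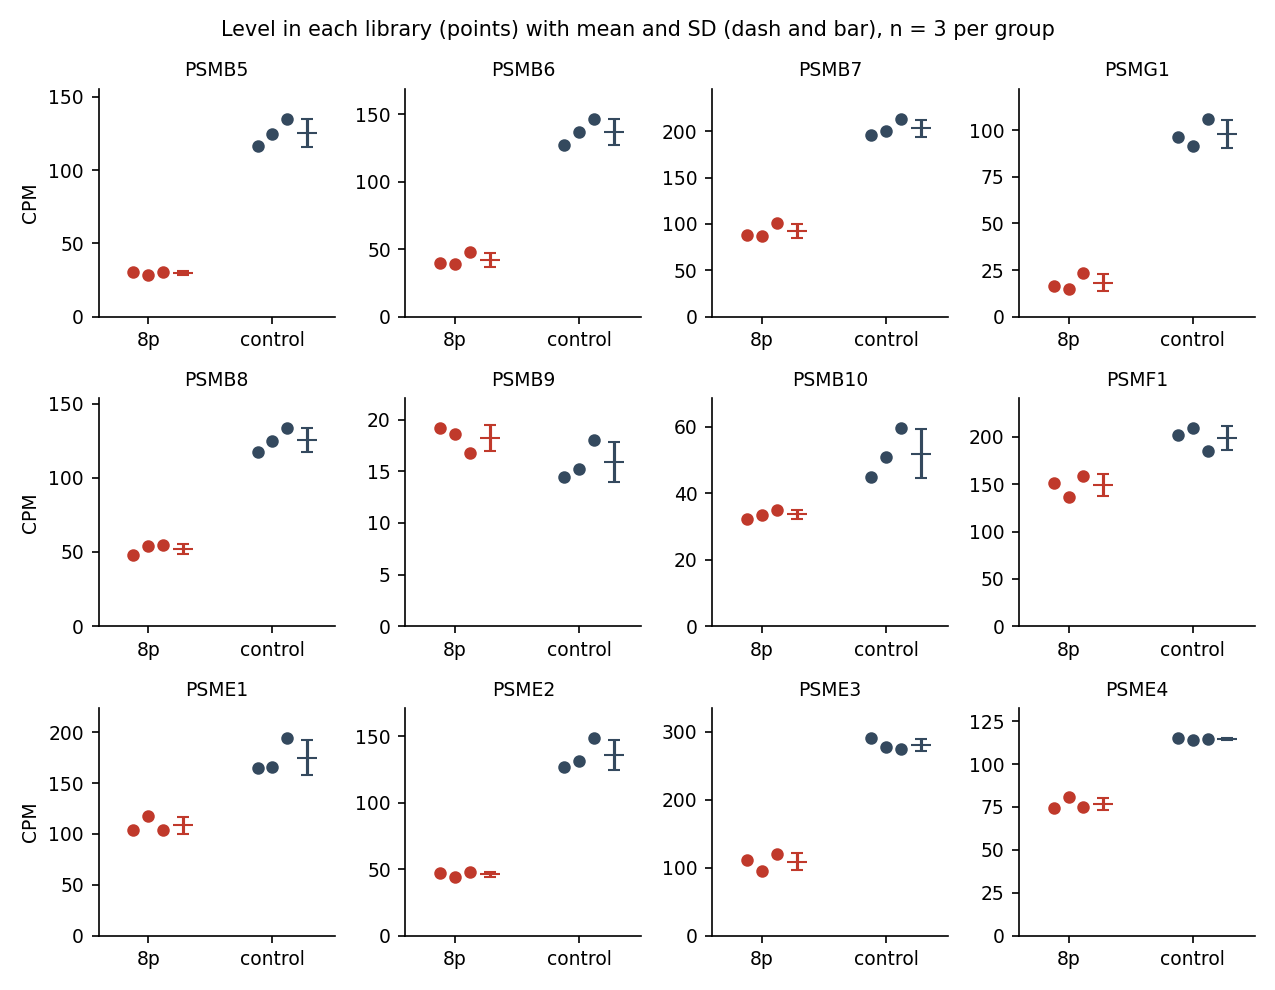
CPM in each of the 3 8p libraries (red, left) and 3 control libraries (dark, right) for 12 genes, with mean and SD beside the points; each panel starts at 0. PSMB9 is the one panel in which the groups overlap, and PSMG1 has the lowest level relative to control, at 18.2 ± 4.54 CPM with 8p and 98.01 ± 7.46 CPM in controls.

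Ratios within a library do not depend on scaling between libraries. The ratio of PSMB9 to PSMB6, in counts per kb, was 0.227, 0.227 and 0.165 in 8p libraries and 0.0534, 0.0526 and 0.0582 in controls. It was 3.73-fold higher with 8p (log2 difference 1.90), more than the spread between replicates, with 8p replicate 3 the lowest of the 8p libraries. The ratio of PSMB8 to PSMB5 was 0.921, 1.12 and 1.06 in 8p libraries and 0.594, 0.591 and 0.582 in controls, 1.75-fold higher with 8p (0.81). The ratio of PSMB10 to PSMB7 was 0.352, 0.371 and 0.335 in 8p libraries and 0.221, 0.245 and 0.269 in controls, 1.44-fold higher (0.53). All 3 ratios were above every control library in 3 of 3 8p libraries. Each gave an exact two-sided permutation p of 0.1, the smallest that 3 against 3 allows, or 0.125 adjusted over 5 ratios computed. The PSMB10 ratio rests on a gene with shared coding bases. The summed level of the 3 inducible genes was 104 ± 3.74 CPM with 8p and 193 ± 17.2 CPM in controls.

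**Figure D4:**
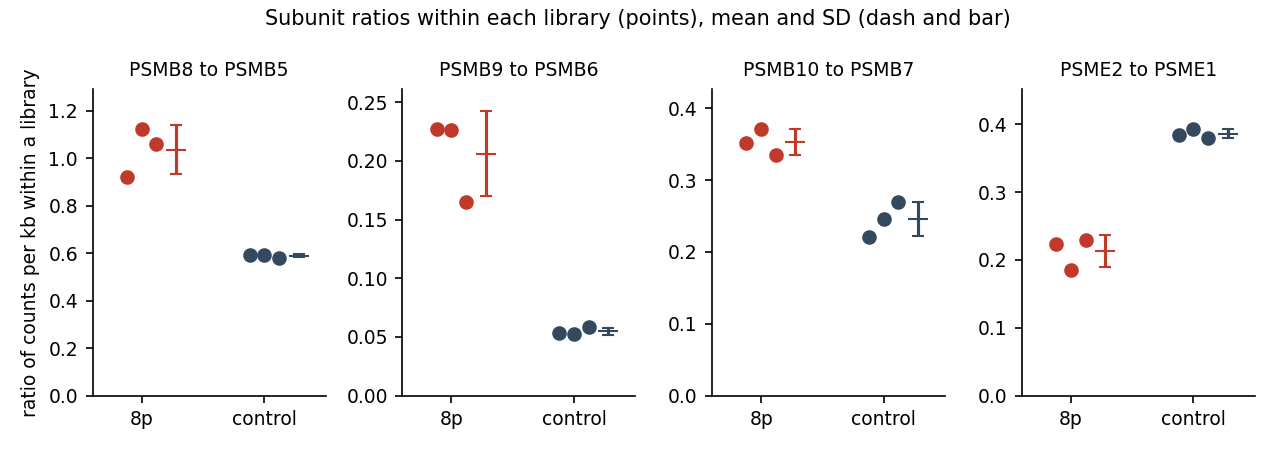
Ratio of counts per kb of exon between 2 subunits within each library (points), with mean and SD, 8p left and control right; each axis starts at 0. In the 3 beta pairs every 8p point lies above every control point, and for PSME2 to PSME1 every 8p point lies below.

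All 17 subunits of the 19S cap among the members fell, with a median of -1.35. Among the 6 ATPases, PSMC3 fell furthest, with 48.0, 50.3 and 52.8 CPM in 8p libraries and 193, 210.1 and 205 CPM in controls (log2 fold change -2.01, SE 0.07, adjusted p = 1.86e-12). PSMC6 fell least, with 78.1, 88.6 and 80.6 CPM in 8p libraries and 94.4, 97.3 and 115 CPM in controls (-0.31, SE 0.09, adjusted p = 0.00433). Upper quartile scaling ended the call of PSMC6 (adjusted p = 0.205), and over its alternatives the adjusted p ran from 1.79e-06 to 0.205. PSMC1, which shares 47.7% of its coding bases and 75.8% of its exon bases with NRDE2 on the other strand, had a log2 fold change of -1.43. Since no strand setting is given, its level and fold change are uncertain too.

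Among the other subunits of the base, PSMD1, a scaffold for ubiquitin receptors, had 35.01, 37.5 and 31.8 CPM in 8p libraries and 125, 126 and 137 CPM in controls (log2 fold change -1.89). PSMD4, a ubiquitin receptor, had 123, 134 and 114 CPM in 8p libraries and 162, 188 and 200 CPM in controls (-0.56), with no overlap between groups. PSMD2, another scaffold, lay between them at -1.24.

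All 8 lid genes with a PSM symbol fell by at least 2-fold, with log2 fold changes from -1.89 to -1.10. PSMD8 fell furthest, with 82.3, 68.9 and 87.5 CPM in 8p libraries and 285, 303 and 293 CPM in controls. PSMD14, the deubiquitinase that removes ubiquitin chains before degradation, had 35.6, 37.2 and 33.0 CPM in 8p libraries and 121, 124 and 130.5 CPM in controls, a log2 fold change of -1.83. PSMD3 fell least of the 8, with 142.5, 108 and 134 CPM in 8p libraries and 271, 291 and 261 CPM in controls. SEM1, a lid gene without a PSM symbol, fell less, with a log2 fold change of -0.66. 8p replicate 2 was the lowest library for PSMD8, PSMD3 and PSMD7, and without it 45 members still passed as lower.

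The chaperones that help to assemble the cap all fell, with a median of -0.53 over 3 genes, the smallest change among the role groups. That median is the value of PSMD9, which has 58.7% of its coding bases in exons of other genes. The fold change of PSMD9 is uncertain for that reason, and so is the rank of the group. The next smallest median was close, at -0.58 for the inhibitor and the activators outside PA28 alpha beta. PSMD10 (gankyrin) had 22.9, 24.9 and 25.8 CPM in 8p libraries and 43.8, 41.5 and 49.7 CPM in controls (log2 fold change -0.87). PSMD5 had 48.7, 45.4 and 44.7 CPM in 8p libraries and 62.8, 61.9 and 62.7 CPM in controls (-0.43, SE 0.08, adjusted p = 1.04e-04). No member of this group fell by 2-fold.

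The chaperones of 20S assembly were less alike. PSMG1 (chromosome 21, 39174769 to 39183851, minus strand) had 16.3, 14.9 and 23.3 CPM in 8p libraries and 96.2, 91.6 and 106 CPM in controls, and stood at 18.5% of the control level (log2 fold change -2.43, SE 0.13, adjusted p = 1.40e-10). PSMG2, whose protein pairs with that of PSMG1, had 88.6, 78.1 and 88.2 CPM in 8p libraries and 99.3, 95.7 and 108 CPM in controls (log2 fold change -0.25, SE 0.08, adjusted p = 0.00911). The groups of PSMG2 were close but did not overlap. It no longer passed under upper quartile scaling (adjusted p = 0.487) or among protein-coding genes alone (0.0628), and its lowest adjusted p over the alternatives was 4.87e-05. PSMG3 and PSMG4, which form the other pair, had log2 fold changes of -1.49 and -1.73.

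The activators and the inhibitor all fell. PSME1 (chromosome 14, 24136158 to 24138967, plus strand) had 104, 118 and 104 CPM in 8p libraries and 165, 166 and 195 CPM in controls (log2 fold change -0.69, SE 0.08, adjusted p = 1.70e-06). PSME2 (chromosome 14, 24143362 to 24147570, minus strand), its partner in PA28, had 47.0, 44.0 and 47.7 CPM in 8p libraries and 127, 131 and 149 CPM in controls (-1.55, SE 0.08, adjusted p = 9.46e-11). The ratio of PSME2 to PSME1 was therefore lower with 8p, at 0.224, 0.185 and 0.229 in 8p libraries and 0.384, 0.393 and 0.380 in controls, a comparison chosen after the values were seen (exact two-sided permutation p = 0.1, the smallest possible).

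The fifth ratio, PSME2 to PSME3, also chosen after the values were seen, was 0.605, 0.661 and 0.575 in 8p libraries and 0.629, 0.681 and 0.781 in controls. The groups overlapped, with a log2 difference of -0.18 (exact two-sided permutation p = 0.2). PSME3, which forms the nuclear activator PA28 gamma, had 112, 95.7 and 119 CPM in 8p libraries and 291, 277 and 274 CPM in controls (log2 fold change -1.37). PSME4 (PA200), a nuclear activator linked to histone turnover, had 74.3, 80.7 and 74.9 CPM in 8p libraries and 115, 114 and 114 CPM in controls (-0.58). PSMF1, the inhibitor PI31, had 151, 136 and 159 CPM in 8p libraries and 202, 209 and 185 CPM in controls (-0.42). None of these groups overlapped. Of the 5 genes usually counted with the immunoproteasome (PSMB8, PSMB9, PSMB10, PSME1 and PSME2), 4 fell and PSMB9 did not pass. Their median was -0.69, against -1.24 for the constitutive 20S genes (-1.48 without those with shared coding bases) and -1.35 for the 19S genes. The 5 did not move alike, from -1.55 for PSME2 and -1.26 for PSMB8 to 0.20 for PSMB9. PSMB10 is 1 of the genes with shared coding bases.

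PSMC3IP, the gene taken in by name alone, had 1.26, 1.62 and 0.810 CPM in 8p libraries and 7.84, 6.68 and 6.91 CPM in controls (log2 fold change -2.52, SE 0.25, adjusted p = 1.83e-07). Its protein works in homologous recombination, and 29.9% of its exon bases overlap MLX on the other strand.

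Proteasome genes that do not carry the PSM name mostly moved the same way. Among 11 such genes, 9 were lower (81.8%, beside 36.9% of all genes tested) and 2 higher (18.2%, beside 37.9%) with 8p, and the median was -0.66. Among those that fell, UCHL5, a deubiquitinase of the cap, had a log2 fold change of -2.06 and USP14, another, -1.24. POMP, a chaperone of 20S maturation, had 81.0, 75.4 and 77.7 CPM in 8p libraries and 204, 182 and 243 CPM in controls (-1.43). ADRM1, a ubiquitin receptor, had a log2 fold change of -1.09. AKIRIN2, which carries proteasomes into the nucleus, rose, with 113, 121 and 114 CPM in 8p libraries and 64.3, 64.3 and 69.7 CPM in controls (log2 fold change 0.81). ZFAND5, a proteasome-binding protein induced in wasting muscle of mice, rose by 0.21 (adjusted p = 0.0110), a call lost without 8p replicate 2 (adjusted p = 0.0705), without control replicate 1 (0.0534), without control replicate 2 (0.0682) and with no filter beyond 1 count (0.386).

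Genes of the NFE2L1 route moved both ways, 5 of 12 higher (41.7%) and 6 lower (50%), shares near the 37.9 and 36.9% of all genes tested. The median was -0.16. Without control replicate 1 the list had 4 genes higher and 3 lower, with DDI2, MAFF, MAFK and SYVN1 lost, and without 8p replicate 1 it had 5 higher and 4 lower. NFE2L1 itself had 60.2, 59.5 and 62.2 CPM in 8p libraries and 99.8, 96.8 and 80.5 CPM in controls (log2 fold change -0.61, adjusted p = 1.11e-05). VCP, the segregase that pulls NFE2L1 from the endoplasmic reticulum, had a log2 fold change of -1.23, and MAFF, a small Maf protein, -0.83. BACH1, a repressor at the same motif, rose by 1.38 and MAFG, a small Maf partner, by 0.76. NFE2L2 did not pass (log2 fold change -0.11, adjusted p = 0.180). The call of MAFF was lost without either of these libraries (adjusted p = 0.0509 without the 8p library and 0.0517 without the control library).

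Genes of interferon signalling and class I presentation were mostly higher with 8p. Of 17 tested, 13 rose (76.5%, beside 37.9% of all genes) and 0 fell (beside 36.9% of all genes) in edgeR, and their median was 0.53. At an unadjusted p under 0.05 the one further gene was TAP2 (log2 fold change -0.48, adjusted p = 0.0531), which 6 alternatives called lower, at adjusted p from 0.00506 to 0.0499. STAT2 rose by 3.01, JAK2 by 1.84, IRF9 by 1.64 and JAK1 by 0.89 on the log2 scale. IRF9 rests on few counts (30, 20 and 21 in 8p libraries, 10, 15 and 6 in controls), with an SE of 0.42. IRF1 rose by 0.82 and NLRC5, the activator of class I genes, by 0.53. TAP1, whose RefSeq start lies close to that of PSMB9, had 53.1, 48.1 and 42.2 CPM in 8p libraries and 30.4, 33.2 and 27.5 CPM in controls (log2 fold change 0.65, SE 0.10, adjusted p = 2.95e-05).

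In the list of ubiquitin supply and delivery 11 of 14 genes were lower (78.6%, beside 36.9% of all genes) and 1 higher (7.14%, beside 37.9%) with 8p, and the median was -0.51. UBE2S, a conjugating enzyme of the anaphase-promoting complex, had a log2 fold change of -2.46, the shuttle factor RAD23B -1.02, and UBQLN4, another shuttle factor, -0.92. RPS27A, one of the genes that encode ubiquitin, rose by 0.29 (adjusted p = 0.0118), a call lost without 8p replicate 2 (adjusted p = 0.0753), control replicate 1 (0.0733) or control replicate 2 (0.0969).

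**Figure D5:**
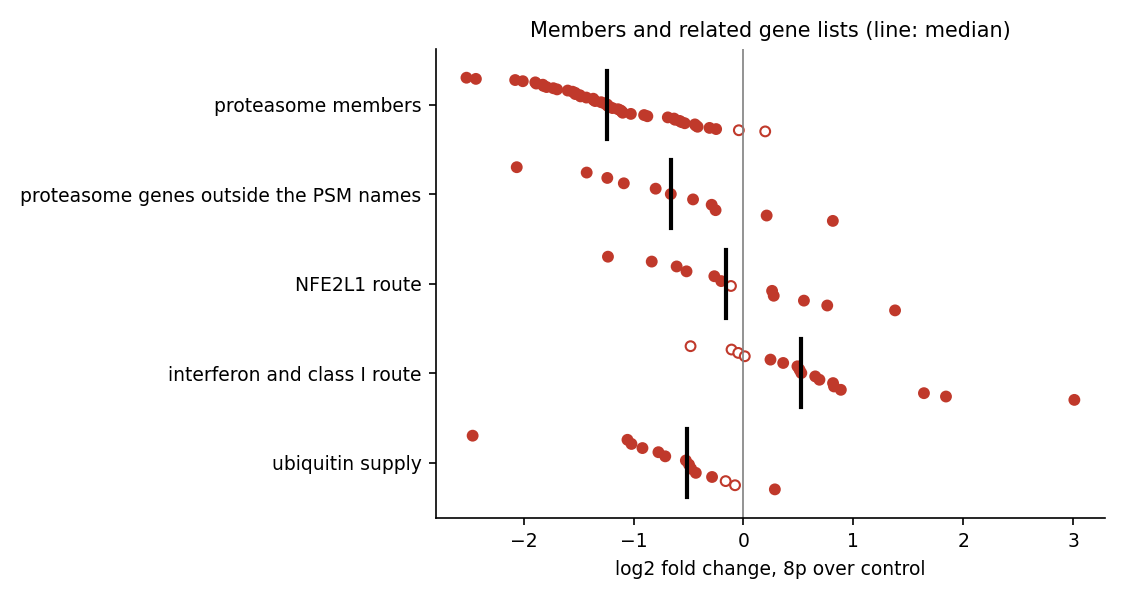
Log2 fold change, 8p over control, of the 47 tested proteasome genes and of the tested genes of 4 related lists; each point is a gene, filled where it passed an adjusted p of 0.05, and the black line is the list's median. The medians run from -1.24 for the proteasome genes to 0.53 for the interferon and class I list.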

How the data were processed

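The deposited table holds raw read counts per gene for 6 libraries, whole numbers to which the authors had applied no normalization. Per the submitters' processing notes, HISAT2 2.0.5 and featureCounts 1.5.0-p3 were used with build hg38; the sources used here give no strand setting, and the labels name poly(A) capture or rRNA removal without saying which. All 58735 gene positions equalled those of GENCODE 29. The table's gene length, deposited beside the counts, is a number of other kind, the exon bases per gene (it equalled the GENCODE exon union for all 49 members).

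Counts were fitted over the whole table with edgeR 4.0.16 in R 4.3.3 (quasi-likelihood F test, TMM, filterByExpr, group as the only term), with Benjamini-Hochberg adjustment over 13822 genes. SE is the log2 fold change divided by the square root of F. CPM use TMM-scaled library sizes. Within-library ratios used counts plus 0.5 per kb. The labels name no spike-in, so changes are relative within a library. Named members were, besides the catalytic, inducible and regulator genes, those with the largest and smallest change in each role group, and up to 4 leading genes of each related list with fixed regulators; further genes named were picked after their values were seen, and some genes under the rule are not reported here. The members and lists were chosen with earlier results of these data known. Alternatives were DESeq2 1.42.0, limma-voom (limma 3.58.1), other scalings, filters and thresholds, protein-coding genes alone, the replicate number as a block and each library left out. The test was run on simulated counts first. Replicates of 1 group were not duplicates: chi-square per degree of freedom was at least 3.03. Floors cover counting error only.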

Additional observations from a re-analysis of the deposited data

How the results depend on the processing

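Of the 47 tested members, 42 kept direction and side of the threshold under all 17 alternatives that apply to single genes; the exceptions were PSMA1, PSMA6, PSMB9, PSMC6 and PSMG2. PSMA1, called under none of them, changed sign under 3: upper quartile scaling (0.15), protein-coding genes alone (0.04) and without control replicate 3 (0.02). Between 42 and 45 members were called lower under the alternatives of test, scaling, filter, gene set and left-out library, and 37 with a 1.5-fold minimum added. PSMB9 made 1 member higher with upper quartile scaling and with protein-coding genes alone. PSMA6 was lost with upper quartile scaling (log2 fold change -0.44, adjusted p = 0.0586) and at an adjusted p under 0.01. Upper quartile scaling moved the median of all genes by 0.19 (log2), and put the 20S median at -1.06 and the 19S median at -1.16. The 19S median was -1.47 with no filter and -1.26 among protein-coding genes alone. The 20S median was -1.48 without the 3 genes that share coding bases, an alternative chosen after seeing the data. For these moves, other than that of leaving genes out, the cause was not tested. Leaving out each library gave 45 lower and 0 higher, a 20S median of -1.31 to -1.17, a 19S median of -1.38 to -1.33, and ratio differences of 0.75 to 0.89 for PSMB8 to PSMB5, 1.82 to 2.05 for PSMB9 to PSMB6 and 0.46 to 0.60 for PSMB10 to PSMB7. Same-numbered libraries did not deviate together (correlations -0.0071, -0.0181 and -0.0432), so the numbers were not taken as pairs; with the replicate block 45 members were called lower and 0 higher, and sign-flip tests of the 3 paired differences of each ratio gave p = 0.25 (exact), the smallest they can give. Genes with few counts (PSMA2, PSMA6, PSMD9, PSMC3IP) have the widest errors, and the 8p libraries were the shallower ones.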
